A study of Homo sapiens with 18 samples.

Results

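Tight junctions seal the space between neighbouring epithelial cells, and the genes described here encode their core proteins as measured in MCF-10A, an epithelial line from human breast that is not malignant. The members are 9 genes chosen by name, CLDN1, CLDN3, CLDN4, CLDN7, OCLN, TJP1, MARVELD2, F11R and CRB3, out of 22031 genes in the expression table, and all 9 were found there. They were chosen with earlier results of these data known. MCF-10A cells had received lentiviral shRNA, either a non-target control (labelled shCON, here shCTRL) or a single shRNA clone against XPA, XPC, ERCC4, ERCC5 or ERCC6, and were kept as stable puromycin-resistant lines. These genes act in nucleotide excision repair (NER), and the 5 knockdown lines shXPA, shXPC, shERCC4, shERCC5 and shERCC6 are called dNER lines, for deficient NER. Each of the 6 lines was sequenced as 3 biological replicates after rRNA depletion, 18 libraries in all. With 1 control line and 1 shRNA clone per gene, the effect of a knockdown cannot be told apart from other differences between the lines.

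Claudins are membrane proteins whose outer loops pair across the gap between cells and set which ions and solutes can pass. Occludin and tricellulin, encoded by OCLN and MARVELD2, belong to a separate membrane family, and tricellulin gathers at corners where several cells meet. F11R encodes JAM-A, an immunoglobulin-type adhesion molecule of the junction, and CRB3 encodes a short apical membrane protein of the Crumbs polarity complex. TJP1 encodes ZO-1, the scaffold on the inner face that ties claudins and occludin to actin. In mammary epithelium these proteins separate the milk-facing from the tissue-facing side of the cell.

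On GRCh38 (GENCODE 29), CLDN3 (chromosome 7, 73768997 to 73770270, minus strand) and CLDN4 (73799542 to 73832693, plus strand) are neighbours 29.3 kb apart. MARVELD2 (chromosome 5, 69415065 to 69444330) and OCLN (69492292 to 69558104) lie 48.0 kb apart on the plus strand. No protein-coding gene lies between the genes of either pair. CLDN1 lies on chromosome 3 (190305701 to 190322475), CLDN7 on chromosome 17 (7259903 to 7263983), TJP1 on chromosome 15 (29699367 to 29968865), F11R on chromosome 1 (160995211 to 161021348) and CRB3 on chromosome 19 (6463777 to 6467221). Whether the libraries kept strand is not given in the sources used here, so reads of overlapping genes could be shared. CLDN7 overlaps ELP5 on the opposite strand and AC003688.1 on its own, CRB3 overlaps SLC25A23 and DENND1C on the opposite strand, and F11R overlaps AL591806.3 on its own. OCLN overlaps an antisense gene, AC145146.1, TJP1 overlaps 3 small annotated genes, and OCLN and CRB3 each have a pseudogene copy (OCLNP1 and CRB3P1). Values of these 5 genes are uncertain to that extent.

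Promoter windows of 8 of the 9 members, from 250 bases before to 50 bases after a transcript start, were taken from RefSeq (GRCh38.p14). Each was searched on both strands for CAGGTG, an E-box bound by the SNAI and ZEB repressors, for AACNGGTT, bound by Grainyhead-like factors, and for CCGGAAGT, bound by ETS factors such as ELF3. These factors are known to act on claudin and occludin genes in epithelia. Of 35116 windows in the table, 20.6% held the E-box, 1.73% the Grainyhead motif and 4.14% the ETS motif. The 4 windows below are shown because they range from no E-box at CLDN4, the member that differed most between lines, through 1 at OCLN, to 5 at CLDN7 and at CRB3, with 1 ETS motif in each of the last pair. E-boxes and ETS motifs are in capitals, and each line gives the coding strand from 5′ to 3′.
CLDN4 (chr7:73830746-73831045, plus strand): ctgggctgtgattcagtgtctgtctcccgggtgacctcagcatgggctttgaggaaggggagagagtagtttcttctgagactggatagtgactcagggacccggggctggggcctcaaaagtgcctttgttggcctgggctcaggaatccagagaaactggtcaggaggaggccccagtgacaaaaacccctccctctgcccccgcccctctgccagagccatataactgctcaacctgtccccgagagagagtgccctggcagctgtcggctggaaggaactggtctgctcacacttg
OCLN (chr5:69492297-69492596, plus strand, the first of 2 windows): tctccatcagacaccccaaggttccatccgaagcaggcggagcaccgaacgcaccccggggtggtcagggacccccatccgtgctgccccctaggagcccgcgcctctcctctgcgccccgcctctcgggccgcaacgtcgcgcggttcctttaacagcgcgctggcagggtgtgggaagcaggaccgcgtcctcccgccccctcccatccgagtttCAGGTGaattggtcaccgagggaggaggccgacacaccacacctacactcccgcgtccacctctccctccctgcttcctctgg
CLDN7 (chr17:7262429-7262728, minus strand, the second of 2 windows): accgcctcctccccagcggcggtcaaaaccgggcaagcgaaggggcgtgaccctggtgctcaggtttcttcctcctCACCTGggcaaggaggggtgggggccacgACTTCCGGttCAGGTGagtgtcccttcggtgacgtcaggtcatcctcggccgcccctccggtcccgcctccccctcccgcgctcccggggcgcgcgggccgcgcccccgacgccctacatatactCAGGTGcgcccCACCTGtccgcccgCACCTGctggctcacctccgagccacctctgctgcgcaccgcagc
CRB3 (chr19:6464021-6464320, plus strand): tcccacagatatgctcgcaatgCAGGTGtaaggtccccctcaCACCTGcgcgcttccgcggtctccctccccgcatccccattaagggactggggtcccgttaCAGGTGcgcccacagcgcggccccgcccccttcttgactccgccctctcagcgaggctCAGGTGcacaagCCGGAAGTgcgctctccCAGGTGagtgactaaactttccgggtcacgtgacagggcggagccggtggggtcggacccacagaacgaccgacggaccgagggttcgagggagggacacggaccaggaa
The other CLDN7 window held none of the motifs, and the other OCLN window held 2 E-boxes. CLDN3 held 1 E-box, TJP1 held 1 in the first of 4 windows, and CLDN1 and MARVELD2 held none of the motifs. No window of a member held the Grainyhead motif. The CLDN4 window stands at the RefSeq start, which lies inside the longer GENCODE gene. A match is a description of the letters and not a measured binding site.

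The values are TPM, which scale reads by transcript length and by library total, so that levels of different genes can be set side by side. Libraries summed to 999214 to 999484 TPM, and since TPM keep no read depth, the depth behind each value is unknown and precision rests on the 3 replicates. Each targeted gene stood below shCTRL in its own line, at 67.6% of the shCTRL mean for XPA in shXPA and at 40.8% to 51.6% in the other 4 lines. Of 10 mammary epithelial markers, 9 had a mean of at least 1 TPM in every line, and KRT19 was near 0. The list summed to 4692 to 5050 TPM in shCTRL libraries and to 3864 to 10580 TPM in dNER libraries. In the mean of the 5 dNER lines, 4 of its 9 tested genes were called higher and 1 lower, beside 7.84% and 28.6% of all genes. With median-of-ratios scaling KRT14, KRT5 and TP63 were called higher in all 5 lines, and KRT17 lower in shXPA (log2 -1.92) and shERCC4 (log2 -1.43). Of markers of other cells, the fibroblast list (7 of 7 genes in the table) summed to 214 to 230 TPM in shCTRL libraries and to 86.0 to 179 TPM in dNER libraries, DCN and COL1A1 being its only genes with a mean of 1 TPM or more, while COL3A1 and LUM were near 0. The endothelial list (3 of 6 genes) summed to 5.57 to 7.60 TPM in shCTRL and 3.44 to 10.7 TPM in dNER libraries and the haematopoietic list (4 of 5) to 30.1 to 40.9 and 11.9 to 44.8 TPM, with the endothelial gene VWF near 0. Single genes of these lists moved with some lines. ITGAM, of myeloid cells, had a mean of 0.0858 TPM in shCTRL, 6.54 in shXPA, 1.78 in shXPC, 1.43 in shERCC5 and 1.09 in shERCC6 and was called higher in those 4 lines, though it passed the filter of 1 TPM in 3 libraries only through dNER libraries, while CD68, of macrophages, was called lower in 4 lines, all but shXPA. KDR, of endothelium, stood at 2.02 TPM in shCTRL and was called higher in shXPC (6.01 TPM) and shERCC5 (3.73 TPM), the lines where CLDN4 and OCLN were highest, and lower in shXPA (0.922 TPM). DCN was called lower in 4 lines, all but shXPA, and COL1A1 in shERCC6. With median-of-ratios scaling COL1A1 was not called in shERCC6 (log2 -0.45) and was called higher in shXPC (log2 0.91). CD68 was then not called in shERCC5 (log2 -0.58), and PECAM1, of endothelium, was called higher in shERCC6 (log2 0.66). The part of these markers in the results was not tested. An entry named CTD-2328D6.1 took 26.4% of the TPM in shERCC4 replicate 1 and from 3.44% to 7.58% in each of the 17 other libraries. For the 9 members, values without that library are given for shERCC4 where they change a call or a sign. Values of other genes without it were not looked at, so their shERCC4 calls carry that limit. Over 16382 tested genes the fold change relative to shCTRL had a log2 median between -0.42 and -0.24 in the 5 lines, and scaling by the median of ratios brought it to between -0.01 and 0.01.

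CLDN7, OCLN, MARVELD2, F11R, CRB3 and CLDN1 were called higher than in shCTRL in 3 or more of the 5 dNER lines, CLDN4 higher in 2 and lower in 2, and the scaffold gene TJP1 lower in all 5, where 4 of the TJP1 calls rest on the scaling. A gene was called at a Storey q under 0.05 from limma on log2(TPM + 0.5) and a fitted fold above 1.5. In bulk RNA, fewer cells of a type and less RNA per cell cannot be told apart. In shERCC5, 8 of the 9 members were called higher (9.97% of all genes tested) and 1 lower (28.3% of all genes). In shXPC, 7 members were higher, where 9.89% of all genes were, and 1 was lower, where 38.0% were. In shXPA, 5 were higher against 11.9% of all genes and 1 was lower against 30.9%. The share of members called higher lay above that of all genes in these 3 lines, and the share called lower lay below it. As the members were chosen with earlier results of these data known, this is a description and no test. In shERCC6, 5 were higher against 6.52% of all genes and 2 were lower against 19.7%. The share called higher lay above that of all genes there too, again as a description. In shERCC4, 1 member was higher, against 4.38% of all genes, and 3 were lower, against 30.9%, and all genes likewise had more lower than higher calls. The lower calls in these last lines were near the share of all genes. For the mean of the 5 dNER lines, 7 members were higher (7.84% of all genes) and 1 was lower (28.6% of all genes). Their median log2 fold change was 2.03 in shXPC, 1.44 for shERCC5, 0.80 for shXPA, 0.73 for shERCC6 and -0.03 for shERCC4, while that of all tested genes lay under 0 in each line. All 9 passed the filter of 1 TPM in 3 libraries, but CLDN3 passed only through shERCC5, so it had to be high there, and it is 1 of the 8 higher members of shERCC5. These comparisons share the 3 shCTRL libraries. With median-of-ratios scaling more genes in all were called higher and fewer lower. The members then gave 8 higher (16.1% of all genes) and 0 lower (13.0%) in shERCC5, 7 higher (18.4%) and 0 lower (16.0%) in shXPC, and 5 higher (18.5%) and 1 lower (17.1%) in shXPA. In shERCC6 they gave 6 higher (11.1%) and 0 lower (9.63%), and in shERCC4 4 higher (10.3%) and 1 lower (10.3%). Without replicate 1, shERCC4 had 3 members higher and 2 lower.

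**Figure D1:**
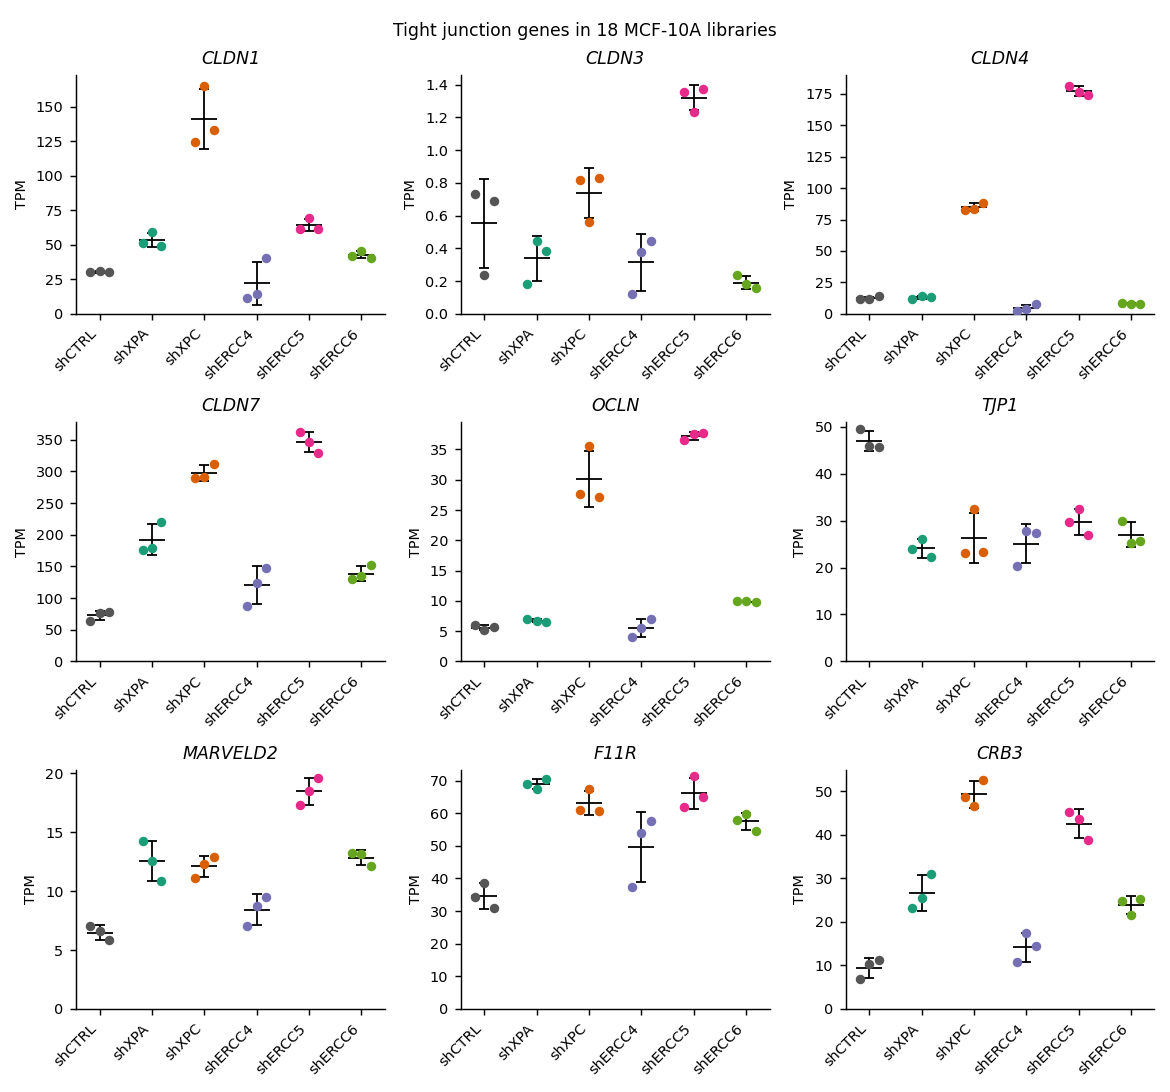
TPM of each of the 9 genes (vertical axes, from 0) in the 6 lines, 3 dots per line for the replicates, with a bar at the mean and whiskers of 1 SD. CLDN4 ran from 2.49 TPM in a shERCC4 library to 181 TPM in a shERCC5 library, and TJP1 is highest in the 3 shCTRL libraries.

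**Figure D2:**
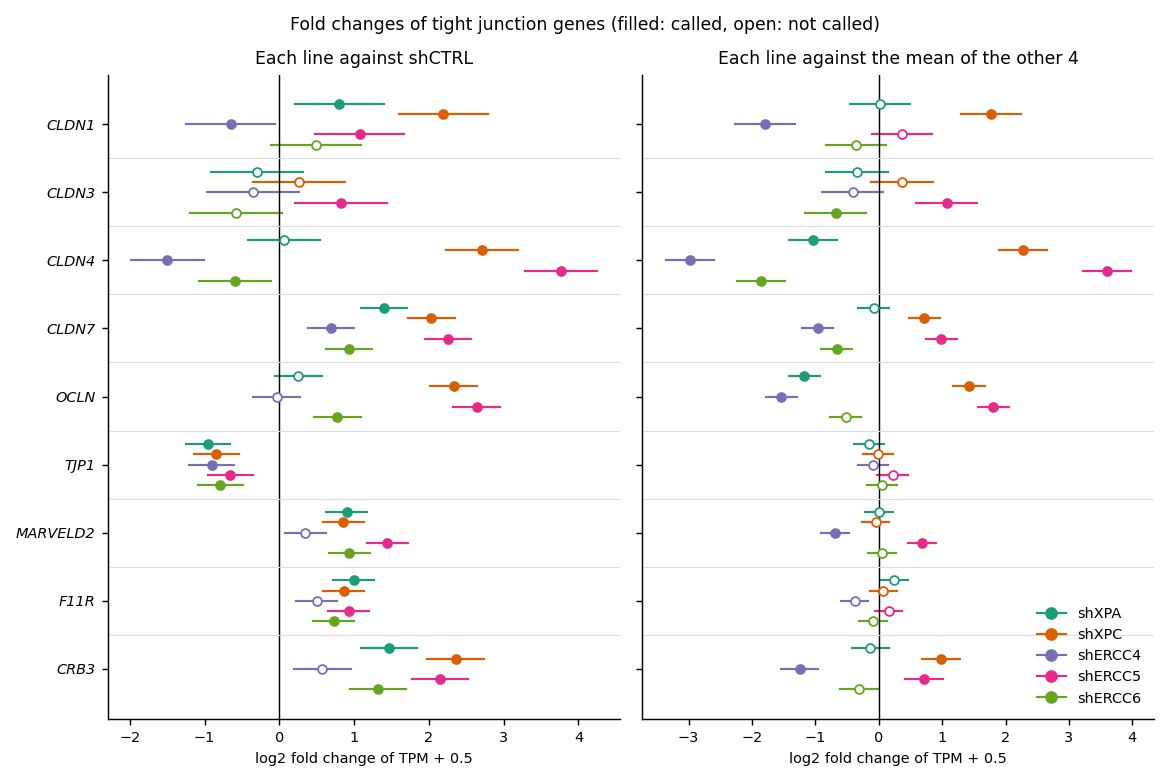
Log2 fold change of TPM + 0.5 (horizontal axes) of the 9 genes in each dNER line, against shCTRL on the left and against the other 4 dNER lines (their mean) on the right, with 95% intervals from limma and filled dots for called values. CLDN7 lies right of 0 and TJP1 left of 0 in all 5 lines on the left, while CLDN4 spreads from -1.50 to 3.77.

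CLDN7, which encodes a claudin that also lies along the lateral membrane and binds EpCAM, was the most abundant member in every line and the only one called higher in all 5. With median-of-ratios scaling MARVELD2, F11R and CRB3 were called higher in all 5 as well. It measured 64.2, 75.7 and 77.5 TPM in shCTRL replicates 1 to 3. Those of shERCC5 held 363, 347 and 330 TPM, those of shXPC 290.1, 291 and 312 TPM and those of shXPA 177, 179 and 221 TPM. Lower levels were found in shERCC6, with 130, 134 and 152 TPM, and in shERCC4, with 88.0, 124 and 147 TPM. Every dNER library lay above every shCTRL library. The log2 fold change was largest in shERCC5 (2.25, standard error 0.146, limma q = 1.81e-09) and smallest in shERCC4 (0.70, limma q = 0.000319). The call in shERCC4 was lost without shERCC4 replicate 3 (log2 0.53, below the fold threshold). In the order of levels shCTRL came first, shERCC4 and shERCC6 overlapped, and shXPA, shXPC and shERCC5 followed, each apart from the line before.

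CLDN4, which encodes a claudin that tightens the junction against sodium, moved in opposite directions in different lines. Its shCTRL libraries held 11.9, 12.0 and 13.8 TPM, and those of shXPA held 11.9, 13.8 and 13.6 TPM. In shXPC it reached 82.6, 83.5 and 88.5 TPM, and in shERCC5 181, 176 and 174 TPM. In shERCC4 it stood at 2.49, 3.57 and 7.63 TPM, and in shERCC6 at 8.38, 7.97 and 8.02 TPM. The shXPC and shERCC5 libraries thus lay above, and the shERCC4 and shERCC6 libraries below, every shCTRL library, while shXPA overlapped shCTRL. CLDN4 rose 13.6-fold in shERCC5 (log2 3.77, standard error 0.228, limma q = 8.22e-10) and 6.54-fold in shXPC (log2 2.71, limma q = 1.37e-08). It fell in shERCC4 (log2 -1.50, limma q = 1.96e-05) and in shERCC6 (log2 -0.60, limma q = 0.0194). The shXPA value was 0.06 (limma q = 0.275). The shERCC6 call was lost with a pseudocount of 1 (log2 -0.57), with median-of-ratios scaling (log2 -0.36, limma q = 0.0764) and without shCTRL replicate 3 (log2 -0.53, limma q = 0.0561).

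CLDN1, which encodes the sealing claudin whose loss opens the skin barrier in mice, was highest in shXPC. It measured 30.0, 30.7 and 29.9 TPM in shCTRL and 125, 165 and 133 TPM in shXPC. The other lines gave 51.1, 58.9 and 49.4 TPM in shXPA, 61.6, 69.5 and 61.6 in shERCC5, 42.1, 45.5 and 40.6 in shERCC6, and 11.7, 14.5 and 40.2 in shERCC4. The shERCC4 libraries lay on both sides of shCTRL, with replicate 3 above it, and all other dNER libraries lay above shCTRL. CLDN1 rose by log2 2.19 in shXPC (standard error 0.283, limma q = 1.48e-06), 1.07 in shERCC5 (limma q = 0.00159) and 0.80 in shXPA (limma q = 0.00797). In shERCC6 the value was 0.49 (limma q = 0.0733), and 0.73 (limma q = 0.0148), past both thresholds, with median-of-ratios scaling. In shERCC4 it was called lower (log2 -0.65, limma q = 0.0228), but not with median-of-ratios scaling (log2 -0.23, limma q = 0.235), without shERCC4 replicate 1 (log2 -0.31) or replicate 2 (log2 -0.46), or with Benjamini-Hochberg adjustment (adjusted p = 0.0685 from limma).

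CLDN3, a close relative of CLDN4 on the same chromosome, was near 0 throughout. The highest library, at 1.37 TPM, was 1 of the 3 of shERCC5, which ran from 1.23 to 1.37 TPM, while those of shCTRL ran from 0.24 to 0.73 TPM. CLDN3 was in the fit only because shERCC5 passed the filter, so its difference there (log2 0.83, and 0.59 and not called without shCTRL replicate 2) is a description and no test. Means in the other lines ran from 0.190 TPM in shERCC6 to 0.738 TPM in shXPC, and none of these was called. Its neighbour CLDN4 stood at 177 ± 3.66 TPM (SD, n = 3) in shERCC5, beside 1.32 TPM for CLDN3.

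The make-up of claudin mRNA differed between the lines along with its amount. Summed over the 17 claudins in the table, the level was 176 ± 11.5 TPM (SD, n = 3) in shCTRL, 186 ± 47.1 in shERCC4 and 224 ± 11.8 in shERCC6. It was 307 ± 21.5 TPM in shXPA, 564 ± 27.2 in shXPC and 632.5 ± 20.8 in shERCC5. CLDN7 held the largest share in every line, from 41.1% ± 1.74 of the summed TPM in shCTRL to 64.5% ± 2.01 in shERCC4. CLDN4 held 28.0% ± 0.576 in shERCC5 and 15.1% ± 0.764 in shXPC, against 7.15% ± 0.349 in shCTRL and 2.33% ± 0.823 in shERCC4. CLDN1 held 24.9% ± 2.76 in shXPC, the line where it was highest, and 10.2% ± 0.662 in shERCC5. CLDN12, whose protein lacks the usual binding motif for ZO-1, held 21.8% ± 2.05 in shCTRL and 4.33% ± 0.328 in shERCC5, with levels of 38.3 and 27.4 TPM. These shares are a description with no test.

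**Figure D3:**
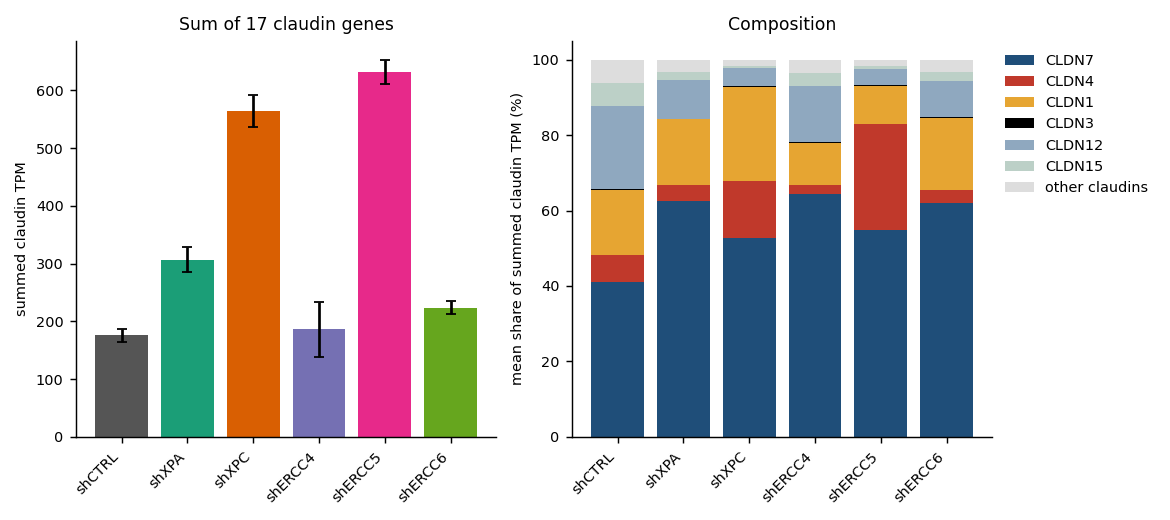
Left, mean summed TPM of 17 claudin genes in the 6 lines with whiskers of 1 SD (n = 3). Right, mean share of that sum (%) held by each claudin: CLDN4 takes 28.0% in shERCC5 and 2.33% in shERCC4, and CLDN12 shrinks from 21.8% in shCTRL to 4.33% in shERCC5.

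OCLN was high in the same pair of lines as CLDN4. Its libraries held 5.97, 5.13 and 5.59 TPM in shCTRL, 27.7, 35.6 and 27.2 in shXPC, and 36.5, 37.5 and 37.7 in shERCC5. In shERCC6 they held 9.89, 9.96 and 9.74 TPM, in shXPA 7.01, 6.68 and 6.48 TPM, and in shERCC4 4.07, 5.51 and 7.03 TPM. Only the shERCC4 libraries overlapped shCTRL. OCLN rose by log2 2.64 in shERCC5 (standard error 0.149, limma q = 4.22e-10), 2.33 in shXPC (limma q = 7.48e-10) and 0.78 in shERCC6 (limma q = 0.000298). The values in shXPA (log2 0.25, limma q = 0.0542) and shERCC4 (log2 -0.03, limma q = 0.29) were not called. The shERCC4 value turned to 0.35 with median-of-ratios scaling (limma q = 0.00622, not past the fold threshold). It turned to 0.15 without shERCC4 replicate 1 (limma q = 0.139, not called).

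MARVELD2, the gene of tricellulin, rose in 4 lines with a narrower span. It measured 7.02, 6.62 and 5.82 TPM in shCTRL and 17.3, 18.5 and 19.6 TPM in shERCC5. In shXPA, shXPC and shERCC6 its libraries ran from 10.9 to 14.3 TPM, all above shCTRL, and the 3 lines overlapped each other in order. In shERCC4 it measured 7.00, 8.75 and 9.53 TPM and overlapped shCTRL. The log2 fold change was 1.44 in shERCC5 (standard error 0.131, limma q = 7.15e-08), 0.94 in shERCC6, 0.90 in shXPA and 0.86 in shXPC. The shERCC4 value of 0.35 (limma q = 0.0125) stayed under the fold threshold and passed it, at 0.74, with median-of-ratios scaling.

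F11R, the gene of JAM-A, rose in 4 lines within a narrow range. It measured 34.3, 38.7 and 30.9 TPM in shCTRL and 37.5, 54.1 and 57.7 TPM in shERCC4. In the other 4 dNER lines its libraries ran from 54.7 to 71.4 TPM, all above shCTRL. The log2 fold changes were 0.99 in shXPA (standard error 0.130, limma q = 2.01e-06), 0.93 in shERCC5, 0.86 in shXPC and 0.73 in shERCC6. In shERCC4 the value was 0.50 (limma q = 0.00153), under the fold threshold, and it passed with median-of-ratios scaling (0.92) and without shERCC4 replicate 1 (0.69).

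CRB3, the polarity gene, rose in 4 lines. Its libraries held 6.79, 10.3 and 11.2 TPM in shCTRL, 48.6, 46.6 and 52.7 in shXPC, and 45.3, 43.6 and 38.8 in shERCC5. In shXPA they held 23.1, 25.5 and 31.1 TPM, in shERCC6 24.8, 21.5 and 25.2 TPM, and in shERCC4 10.7, 17.4 and 14.6 TPM. Only the shERCC4 libraries overlapped shCTRL, and shXPA and shERCC6 overlapped each other. The log2 fold change was 2.36 in shXPC (standard error 0.178, limma q = 4.35e-09), 2.15 in shERCC5, 1.47 in shXPA and 1.32 in shERCC6. The shERCC4 value of 0.57 (limma q = 0.00459) was 1.49-fold and so just missed the fold threshold of 1.5, and it passed with a pseudocount of 0.1 (0.60), with median-of-ratios scaling (0.98) and without shCTRL replicate 2, shCTRL replicate 3 or shERCC4 replicate 1 (0.65 to 0.76).

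TJP1 was the only member below every shCTRL library in all 15 dNER libraries. It measured 49.6, 45.9 and 45.7 TPM in shCTRL, and the dNER libraries ran from 20.3 to 32.5 TPM. Each dNER line overlapped the next in order, from 24.1 ± 2.01 TPM (SD, n = 3) in shXPA to 29.7 ± 2.74 TPM in shERCC5. The log2 fold changes were -0.95 in shXPA (standard error 0.142, limma q = 7.94e-06), -0.91 in shERCC4, -0.85 in shXPC, -0.79 in shERCC6 and -0.66 in shERCC5 (limma q = 0.000351). With median-of-ratios scaling all stayed under 0, with shXPA at -0.63, which was still called, and the other 4 lines between -0.55 and -0.32, short of a 1.5-fold change. The fall of TJP1 beyond 1.5-fold in those 4 lines thus depended on the scaling.

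Each dNER line was also set against the mean of the other 4, a contrast in which shCTRL takes no part. The 5 contrasts are tied, since a high value in 1 line raises the mean that the others are set against. shXPC had 5 members higher (5.04% of all genes) and 0 lower (7.92%), and shERCC5 had 6 higher (4.41%), CLDN3 with its limit being 1 of them, and 0 lower (1.86%). shERCC4 had 6 members lower (9.27% of all genes) and 0 higher (3.63%), shERCC6 had 3 lower (6.10%), CLDN3 with the same limit being 1 of them, and 0 higher (12.0%), and shXPA had 2 lower (8.67%) and 0 higher (10.5%). The 2 in shXPA were CLDN4 and OCLN, which were not called there against shCTRL (log2 0.06 and 0.25). CLDN4 was called in all 5 contrasts, from -2.98 in shERCC4 (limma q = 1.87e-09) to 3.60 in shERCC5 (limma q = 1.48e-09). At an unadjusted p under 0.05 from limma the counts of 0 stayed at 0, except that F11R was higher in shXPA, and all were 0 with Benjamini-Hochberg adjustment. OCLN was called in 4, being lower in shXPA (log2 -1.17) and shERCC4 (-1.53) and higher in shXPC (1.42) and shERCC5 (1.81). Its shERCC6 value of -0.52 (limma q = 0.000952) missed the fold threshold and passed it, at -0.67, with median-of-ratios scaling. TJP1 and F11R were called in none, with TJP1 between -0.15 and 0.22 and F11R between -0.38 and 0.24. Thus the 9 genes ran from CLDN4, called in each of these tied contrasts, to TJP1 and F11R, which passed in no contrast between dNER lines. F11R missed only the fold threshold in shERCC4 (log2 -0.38, limma q = 0.00628) and shXPA (log2 0.24, limma q = 0.0352). Against shCTRL, TJP1 was called in all 5 lines, with 4 of the calls resting on the scaling, and F11R in 4 lines.

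Over the 18 libraries, the Pearson correlation of log2(TPM + 0.5) was highest between CLDN7 and CRB3 (r = 0.96) and between CLDN4 and OCLN (r = 0.94). TJP1 had its lowest value with F11R (r = -0.60) and its highest with CLDN3 (r = 0.22). These points share the 6 lines and 3 libraries of each, so the values mostly describe line means. Among genes of at least 5 TPM in some line, those most like CLDN4 were C1orf74 (r = 0.99) and CPE (r = 0.98), and those most like OCLN were PDP1 (r = 0.99) and KCNK15 (r = 0.99). C1orf74 stood at 18.4 TPM in shCTRL, 67.0 in shXPC, 82.2 in shERCC5 and 11.6 in shERCC4, and KCNK15, which encodes a potassium channel subunit, at 4.16, 43.6, 44.4 and 4.55 TPM. CLDN1 was most like SERPINB2 (r = 0.98), a serpin of keratinocytes, and SPRR2A (r = 0.97), a cornified envelope protein, at 5.43 TPM in shCTRL and 146 TPM in shXPC. For CLDN7 they were DENND1C (r = 0.98) and CD9 (r = 0.97), a tetraspanin, at 147 TPM in shCTRL and 681 TPM in shERCC5. DENND1C overlaps CRB3, so reads of these genes could be shared if strand was not kept. For CRB3 they were SLC6A9 (r = 0.97) and PGBD5 (r = 0.97), for MARVELD2 ABCA12 (r = 0.94) and IL4R (r = 0.94), and for F11R TPD52L1 (r = 0.97) and CREG1 (r = 0.96). TJP1 was most like GPR107 (r = 0.96) and DCTN1 (r = 0.95), which also stood highest in shCTRL, and CLDN3 most like AC022596.6 (r = 0.90) and MIA (r = 0.89).

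Other genes of the tight junction were called in both directions. Of 71 such genes in 3 lists, 61 were in the table and 52 were tested, and 6 were higher and 12 lower in the mean of the 5 dNER lines against shCTRL, where 7.84% of all genes were higher and 28.6% lower, with a median log2 fold change of -0.26 beside -0.33 for all genes. Both counts were thus near what all genes show. With median-of-ratios scaling 12 were higher and 6 lower, where 13.7% of all genes were higher and 12.0% lower. Among 10 tested membrane proteins, 5 were higher and 3 lower under both scalings. One of the 3 lower, ILDR2, passed the filter only through shCTRL, and one of the 5 higher, ILDR1, only through dNER libraries, so that their directions were tied to the filter. CXADR, an immunoglobulin-type adhesion protein of the junction, rose most, from 4.58 ± 0.559 TPM in shCTRL to between 13.4 ± 0.759 in shERCC6 and 31.1 ± 3.33 in shXPC, and was called higher in all 5 lines. EPCAM, the partner of claudin-7, rose in 4 lines and stood at 10.9 TPM in shXPA against 15.0 TPM in shCTRL (log2 -0.45, limma q = 0.000916, below the fold threshold). LSR, which draws tricellulin to those corners, rose from 32.3 ± 1.93 TPM to 125 ± 11.1 in shERCC5 and was called in 4 lines, with shERCC4 also past both thresholds under median-of-ratios scaling. JAM3, a relative of F11R, fell in all 5 lines, by 1.02 on the log2 scale for their mean. With median-of-ratios scaling all 5 values stayed under 0 and the mean was still called lower (log2 -0.70), while of single lines shXPC and shERCC4 were.

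Among 34 tested plaque and polarity genes, 1 was higher and 7 lower in the mean of the 5 lines, beside 7.84% and 28.6% of all genes. Lower calls were thus no more common than among all genes. With median-of-ratios scaling 7 were higher and 3 lower, beside 13.7% and 12.0% of all genes. The one higher in the data as deposited was CGN, for cingulin, which links the junction to actomyosin (log2 0.91, limma q = 0.000795). It stood at 1.78 ± 0.301 TPM in shCTRL and 7.09 ± 2.01 in shXPC. It was called higher in shXPA, shXPC and shERCC5, and stood at 1.22 ± 0.410 TPM in shERCC4 and 2.40 ± 0.613 in shERCC6, neither of them called. AMOTL2, an angiomotin family member, fell from 63.9 ± 5.93 TPM to between 16.4 and 20.6 TPM in all 5 lines (log2 -1.74 for the mean, limma q = 1.63e-10). ARHGAP17, a GTPase-activating protein that binds angiomotin, fell by 1.01 and MPDZ, a scaffold with many PDZ domains, by 1.00, and AMOTL2, ARHGAP17 and MPDZ stayed lower in the mean of the 5 lines with median-of-ratios scaling. The list of other claudins had 8 tested genes, CLDND1 among them, which was left out of the summed claudins. Of these 8, 0 rose by limma in the mean of the 5 lines (0 at an unadjusted p under 0.05) and 2 fell. They were CLDN15, a pore-forming claudin (log2 -0.93), and CLDN14 (log2 -0.71, at most 1.53 TPM in any library, with an unadjusted limma p of 0.0598, and named after its value was seen). In that mean neither passed with median-of-ratios scaling. Among all genes 7.84% were higher and 28.6% lower in that mean. CLDN12 (-0.53), CLDN11 (-0.46), CLDN20 (-0.37), CLDN23 (-0.32), CLDN16 (0.42) and CLDND1, a more distant relative (-0.03), were not called there. In single lines CLDN16, at most 1.79 TPM in any library, was called higher in shXPC (log2 1.13, limma q = 0.00983), and CLDN20, at most 1.70 TPM, was called lower there (log2 -0.90, limma q = 0.00159), both also with median-of-ratios scaling. CLDN12 was called lower in shERCC6 under both scalings, while the lower calls of CLDN11 in shERCC5 and shERCC6 and of CLDN23 in shERCC4 were lost with median-of-ratios scaling. With that scaling CLDN15 was called lower in shXPC (log2 -0.89), shERCC5 (-0.75) and shERCC6 (-0.64), and CLDN14 in shERCC6 (-1.12).

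**Figure D4:**
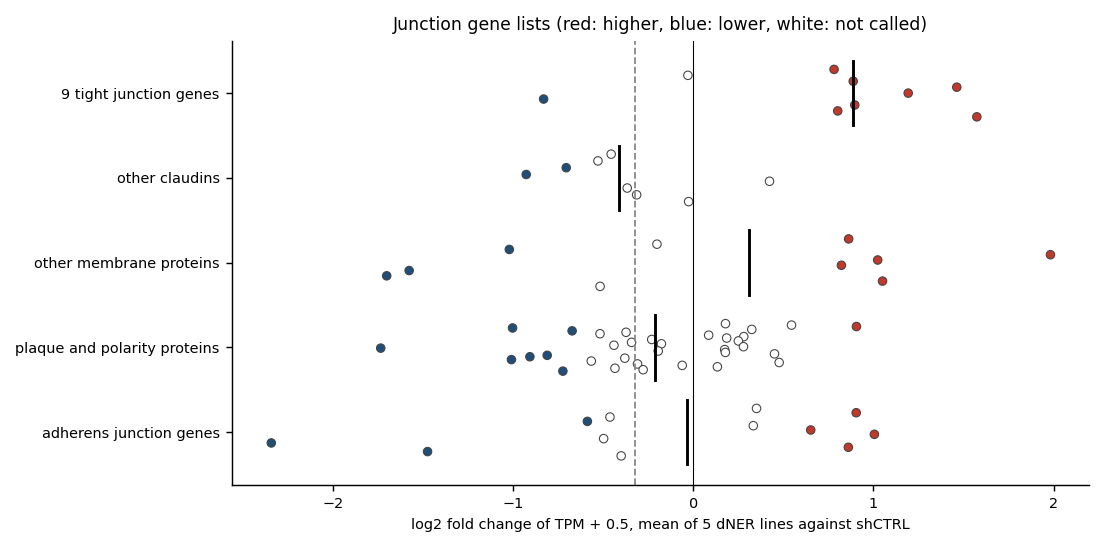
Log2 fold change of TPM + 0.5 for the mean of the 5 dNER lines against shCTRL (horizontal axis) of each tested gene in 5 lists, coloured by call, with a black bar at each list's median and a dashed line at the median of all genes, -0.33. The 9 tight junction genes hold 7 called higher and 1 lower, and the 34 plaque and polarity genes 1 higher and 7 lower, beside 7.84% and 28.6% of all genes. With median-of-ratios scaling the plaque and polarity genes held 7 higher and 3 lower.

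Adherens junctions, the cadherin-based belt below the tight junction, had 4 of 12 genes higher and 3 lower in the mean of the 5 lines. All genes gave 7.84% and 28.6%, so that the lower calls were near the share of all genes. With median-of-ratios scaling 6 were higher and 2 lower, beside 13.7% and 12.0% of all genes. PVRL1 (nectin-1) rose from 27.6 ± 0.525 TPM to between 36.0 and 80.2 TPM (log2 1.01), and CDH3 (P-cadherin) rose by log2 0.90. PVRL4 (nectin-4) was called higher for the mean (log2 0.86) and in shXPA, shXPC and shERCC5, and stood at 4.25 ± 0.861 TPM in shERCC4 and 5.57 ± 1.14 in shERCC6 against 5.96 ± 0.480 in shCTRL, neither of them called. PVRL3 (nectin-3) fell from 20.5 ± 3.80 TPM to between 2.30 and 4.84 TPM (log2 -2.34) and VCL, the actin linker vinculin, from 99.7 ± 7.56 TPM to between 28.3 and 49.7 TPM (log2 -1.48). CTNNB1, for beta-catenin, fell by 0.59, and its value was -0.23 and not called with median-of-ratios scaling. CDH1, for E-cadherin, was higher in shXPC (log2 1.01) and shERCC5 (log2 1.06) and not called in the other lines. With median-of-ratios scaling it was also called higher in shXPA (log2 0.59), and it was named after its values were seen.

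Transcription factors known to act on claudin or occludin genes were called both ways, with 4 of 10 tested higher and 4 lower in the mean of the 5 lines, beside 7.84% and 28.6% of all genes. With median-of-ratios scaling, where SNAI1 was not tested, 5 of 9 were higher and 3 lower, beside 13.7% and 12.0% of all genes. SNAI1, 1 of the 4 lower, passed the filter only through the 3 shCTRL libraries, so it had to be lower elsewhere and its value is a description and no test. The 4 lower ones repress epithelial genes in other settings. SNAI2 stood at 47.7 ± 2.94 TPM in shCTRL and between 19.6 ± 2.79 and 33.5 ± 1.76 TPM in the dNER lines (log2 -1.02 for the mean, limma q = 6.26e-08). ZEB1 fell by 1.35 and ZEB2 by 1.33, each being called lower in all 5 lines. SNAI1 stood at 1.13 TPM in shCTRL and at most at 0.957 TPM in a dNER library. SNAI2, ZEB1 and ZEB2 stayed lower in the mean of the 5 lines with median-of-ratios scaling, though SNAI2 was not called in shERCC6 (log2 -0.26). TWIST1 (log2 -0.29, and 0.07 with median-of-ratios scaling) was not called.

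The 4 higher factors are tied to epithelial barriers. GRHL3 rose in 4 lines, from 11.45 ± 0.626 TPM in shCTRL to between 37.8 ± 2.14 and 44.1 ± 2.79 TPM, and stood at 16.7 ± 9.24 TPM in shERCC4 (log2 0.39, limma q = 0.0605, and 0.80 and called with median-of-ratios scaling). ELF3 differed between lines in both directions, like CLDN4. Its libraries held 17.1, 14.3 and 17.5 TPM in shCTRL, 98.1, 97.3 and 112 in shXPC, 95.1, 86.7 and 94.1 in shERCC5, 2.21, 2.96 and 6.65 in shERCC4, and 8.04, 7.60 and 8.67 in shERCC6. The shXPC and shERCC5 libraries thus lay above, and the shERCC4 and shERCC6 libraries below, every shCTRL library, as for CLDN4. In shXPA the pair parted, with ELF3 at 55.9, 53.6 and 64.3 TPM, above shCTRL (log2 1.80, limma q = 1.65e-06), and CLDN4 overlapping it. Set against the other 4 dNER lines together, ELF3 was called in every one, at 2.30 in shXPC, 2.11 for shERCC5, 1.28 for shXPA, -2.17 for shERCC6 and -3.52 for shERCC4. GRHL1 was called higher in shXPA, shXPC and shERCC5 and lower in shERCC4 (log2 -0.89, and -0.55 and not called with median-of-ratios scaling), and OVOL1 likewise (log2 -1.33 in shERCC4). OVOL2 (log2 0.53) did not pass the fold threshold in the mean of the 5 lines but did so, at 0.85, with median-of-ratios scaling, and GRHL2 was near 0 and not tested.

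**Figure D5:**
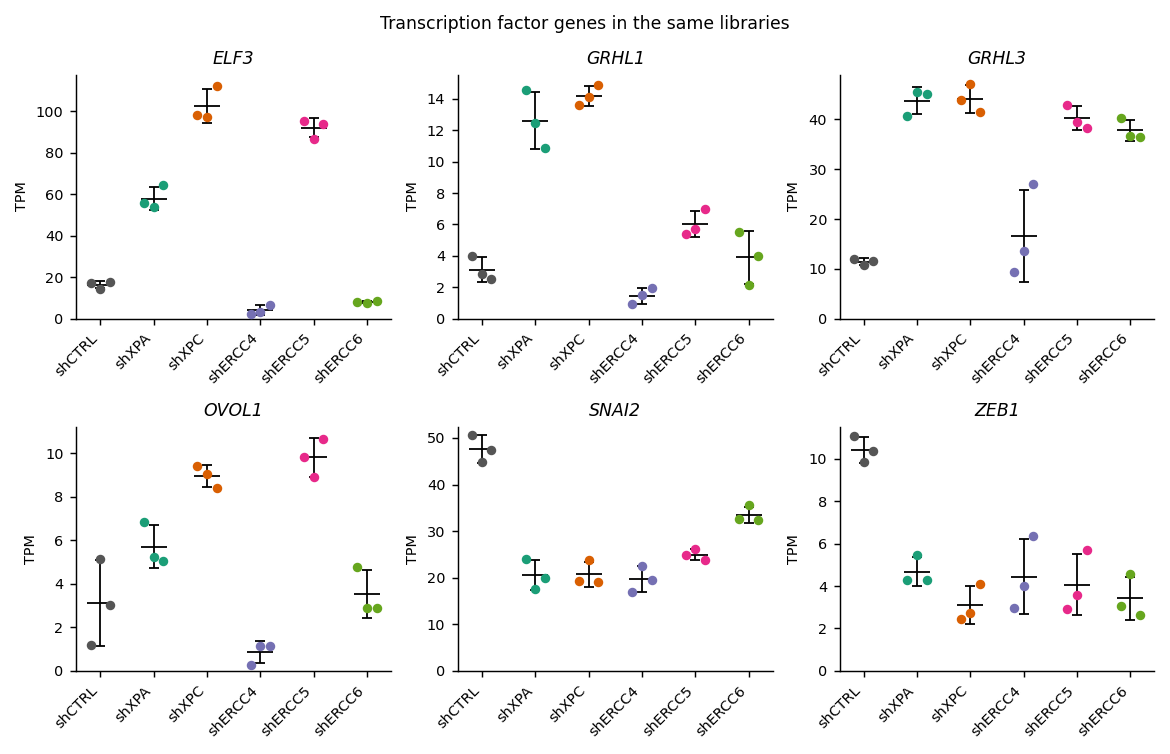
TPM of 6 transcription factor genes (vertical axes, from 0) in the 6 lines, 3 dots per line for the replicates, with a bar at the mean and whiskers of 1 SD. ELF3 is high in shXPC and shERCC5 and lowest in shERCC4, and SNAI2 and ZEB1 are highest in shCTRL.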

How the data were processed

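RNA of 6 MCF-10A lines with 3 biological replicates each was sequenced after rRNA depletion. The deposited values are TPM per gene symbol that the authors made with kallisto (0.43.1 in the submitters' processing notes, while the study's methods name another version) on hg38, and the transcript annotation and the step from transcripts to genes are not given in the sources used here. TPM were used as deposited. Genes of at least 1 TPM in at least 3 libraries (16382 of 22031) were fitted on log2(TPM + 0.5) in 1 limma model (R 4.3.3, limma 3.58.1, empirical Bayes with a trend, 12 residual degrees of freedom). The added 0.5 makes fold changes of low genes smaller than their TPM ratio. Storey's q used lambda 0.5 and can lie below its p, since the method scales by an estimated share of unchanged genes. Since each group is 1 line, p and q rest on the spread between replicates of a line. That spread was estimated once per gene over all 6 lines and moderated over genes, so it is not the spread of any single line. The pipeline was tested on simulated data.

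All 9 members were named. Over the 3 other tight junction lists as 1 set, genes called in the mean of the 5 lines with at least 5 TPM in some line were named by size of change, up to 4 each way (up to 3 for the adherens junction list), with other claudins of at least 1 TPM and all tested factors. The members and lists were chosen with earlier results of these data known. Symbols were matched to GENCODE 29 for positions (17859 of 22031). Alternatives were 2 other pseudocounts, 2 other filters, median-of-ratios scaling, Benjamini-Hochberg adjustment, fits of the compared groups alone, unmoderated spread, a replicate block and leaving out each library.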

Additional observations from a re-analysis of the deposited data

Results flagged for a closer look

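Values are log2 fold changes between a dNER line and the mean of its 4 fellow lines, and each result here except those of CLDN3 differed between the lines by limma (Storey q under 0.05, fold above 1.5). CLDN4 differed in all 5 lines, at -1.04 in shXPA, 2.28 in shXPC, -2.98 in shERCC4, 3.60 in shERCC5 and -1.86 in shERCC6. OCLN differed in shXPA (-1.17), shXPC (1.42), shERCC4 (-1.53) and shERCC5 (1.81). CLDN7 differed in shXPC (0.71), shERCC4 (-0.96), shERCC5 (0.99) and shERCC6 (-0.66). CRB3 differed in shXPC (0.98), shERCC4 (-1.25) and shERCC5 (0.72), and CLDN1 in shXPC (1.76) and shERCC4 (-1.79). MARVELD2 differed in shERCC4 (-0.69) and shERCC5 (0.68), and its shERCC4 value fell below the fold threshold without shERCC4 replicate 1 (-0.57). CLDN3, near 0 in all lines, had values of 1.07 in shERCC5 and -0.68 in shERCC6, but it was in the fit only through shERCC5, which stands on one side of each contrast, so both are descriptions and no test, the latter under the fold threshold with a pseudocount of 1 (-0.45).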

How the results depend on the processing

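Median-of-ratios scaling, which moves the median of all genes from -0.33 to 0.01 for the mean of the 5 lines, changed most. With it, members called lower than in shCTRL went to 0 in shXPC, shERCC5, shERCC6 and the mean of the 5 lines and to 1 in shERCC4, and members called higher in shERCC4 went from 1 to 4. A pseudocount of 0.1 gave 2 members higher in shERCC4, and a pseudocount of 1 gave 1 lower in shERCC6. Leaving out 1 library in turn gave 0 to 3 members higher in shERCC4 and 1 to 3 lower in shERCC6. Without shCTRL replicate 2 or shCTRL replicate 3 there were 2 members higher in shERCC4, without shERCC4 replicate 1 there were 3 and without shERCC4 replicate 3 there were 0. Without shCTRL replicate 3 there was 1 member lower in shERCC6, and without shCTRL replicate 2 there were 3. Values that turned in sign with median-of-ratios scaling were OCLN in shERCC4 (0.35) and CLDN3 in the mean of the 5 lines (0.14), and, against the other 4 lines, CLDN1 (-0.016) and MARVELD2 (-0.036) in shXPA, TJP1 (0.12) and MARVELD2 (0.089) in shXPC, and TJP1 (-0.10) and MARVELD2 (-0.094) in shERCC6. The cause was not tested.

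Leaving out 1 library in turn also moved some values near 0 to both sides of 0. These were OCLN in shERCC4 (-0.21 to 0.15) and CLDN3 in the mean of the 5 lines (-0.27 to 0.10), and, against the other 4 lines, CLDN1 (-0.060 to 0.16) and MARVELD2 (-0.091 to 0.10) in shXPA, TJP1 (-0.18 to 0.064) and MARVELD2 (-0.095 to 0.0056) in shXPC, and TJP1 in shERCC4 (-0.17 to 0.049) and shERCC6 (-0.029 to 0.094). None of these values was called in the data as deposited.

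Of 99 member values, 99 kept their direction and side of the threshold without a filter, with unmoderated spread and with the replicate block. In this balanced design these 3 settings cannot move a fitted fold change, only its q. The kept directions were thus fixed in advance, as was OCLN in shERCC5, at 2.64 with the block as without it. Same-numbered libraries of different lines did not deviate together (median r 0.007 over 45 pairs, against -0.0014 over 90 pairs of other numbers), so replicate numbers were not taken as pairs. With a filter of 5 TPM in 3 libraries CLDN3 was not tested, and all 88 values of the other members kept their direction and side of the threshold. TPM set a limit of their own, since depth is unknown and no counting interval can be given for low genes such as CLDN3.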
